A study of Mus musculus with 6 samples.

Results

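Late neutrophil precursors are described here in mouse lung, as cells that carry the mRNAs of the secondary (specific) granules: Ngp, neutrophilic granule protein, Camp, the cathelicidin antimicrobial peptide, and Ltf, lactoferrin. A kept cell was a member when at least 2 of these genes were detected, their unique molecular identifiers (UMIs, 1 per captured mRNA molecule) summed to at least 5, and Cd79a, Cd3e, Ncr1 and Plet1, which mark B cells, T cells, natural killer cells and alveolar macrophages, together had at most 1 UMI. Of 71634 kept cells 555 met the rule, 551 of 52741 from AML lung and 4 of 18893 from normal lung. The study profiled CD45-positive leukocytes, bead-enriched from perfused and digested lungs, as single-cell 3' libraries, 3 of them of lungs that acute myeloid leukaemia (AML) had infiltrated and 3 of normal lungs. The labels used here give neither the strain, age and sex of the mice, nor the leukaemia model, nor how many mice a library holds, so p-values measure the spread between these libraries. Precursors were set against mature neutrophils, cells with at least 3 of Retnlg, Cxcr2, Il1r2, Hdc and G0s2 detected and at most 4 UMIs of Ngp, Camp and Ltf, of which AML lung held 6553 and normal lung 1584.

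Neutrophils are made in the bone marrow, where they pass through stages that fill successive kinds of granule. Primary granule proteins such as elastase and myeloperoxidase are transcribed in promyelocytes, secondary granule proteins in myelocytes and metamyelocytes, and gelatinase granule and membrane proteins in band and segmented cells. Division ends during the secondary granule stage, and under the transcription factor C/EBP epsilon, encoded by Cebpe, the secondary granule genes are transcribed together. Cells of the secondary granule stage are normally kept in the marrow, and they can enter the blood when granulopoiesis is raised.

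Ngp lies on chromosome 9 at 110419747 to 110423012 (plus strand), Camp on chromosome 9 at 109847379 to 109849617 (minus strand), Ltf on chromosome 9 at 111019271 to 111042767 (plus strand) and Lcn2 on chromosome 2 at 32384633 to 32388252 (minus strand), in GENCODE M21 on GRCm38, the assembly that mm10 names. Lcn2, lipocalin 2, is a secondary granule protein that binds bacterial siderophores, and it was not used by the rule. The 250 bases before the RefSeq start of each gene (GRCm38.p6) are shown because Ngp, Camp and Ltf define the cells and Lcn2 serves to check their name. Capitals mark matches to TTGCNNAA or, on the other strand, TTNNGCAA, a form of the C/EBP site. The windows are chr9:110419558-110419807 for Ngp, chr9:109849457-109849706 for Camp, chr9:111019042-111019291 for Ltf and chr2:32387740-32387989 for Lcn2, each read on the strand of its gene.
Ngp: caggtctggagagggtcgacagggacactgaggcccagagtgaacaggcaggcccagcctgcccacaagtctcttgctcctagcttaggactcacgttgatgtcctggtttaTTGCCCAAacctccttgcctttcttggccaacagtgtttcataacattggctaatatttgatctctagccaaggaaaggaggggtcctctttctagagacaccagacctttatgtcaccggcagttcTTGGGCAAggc
Camp: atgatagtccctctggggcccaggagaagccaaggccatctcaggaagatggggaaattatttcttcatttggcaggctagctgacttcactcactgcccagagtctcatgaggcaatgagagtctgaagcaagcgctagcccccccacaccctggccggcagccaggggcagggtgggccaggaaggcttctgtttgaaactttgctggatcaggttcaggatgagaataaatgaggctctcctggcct
Ltf: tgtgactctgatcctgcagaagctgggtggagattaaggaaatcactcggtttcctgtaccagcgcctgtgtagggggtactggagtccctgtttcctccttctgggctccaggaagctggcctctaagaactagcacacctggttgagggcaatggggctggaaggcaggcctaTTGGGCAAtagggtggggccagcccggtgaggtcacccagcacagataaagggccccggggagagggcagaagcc
Lcn2: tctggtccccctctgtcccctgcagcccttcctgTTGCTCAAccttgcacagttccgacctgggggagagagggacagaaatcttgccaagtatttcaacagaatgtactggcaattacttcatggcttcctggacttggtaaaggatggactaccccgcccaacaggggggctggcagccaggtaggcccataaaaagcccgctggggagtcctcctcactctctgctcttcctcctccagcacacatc
The Ngp window held matches beginning 138 and 11 bases before the RefSeq start. The Ltf window held 1 at 75 bases and the Lcn2 window 1 at 216 bases. For these genes the GENCODE starts lie further upstream than the RefSeq starts. The Lcn2 window, with its match, lies wholly within the GENCODE span of the gene. The Ngp, Camp and Ltf windows reach into theirs, and the Ngp match at 11 bases lies inside the Ngp span. No match was found in the Camp window. Of the 12 genes of the secondary granule list 11 had a promoter sequence and 5 of these held the motif, which were Ngp, Ltf, Lcn2, Mmp8 and Ptx3, a share of 45.5%. The same motif was present in 10.8% of 27025 promoters and in 9.38% of the 6639 of genes tested between precursors and mature neutrophils. It was in 9.75% of the 359 promoters of genes called higher in precursors and in 14.1% of the 248 of genes called lower. These matches describe letters and not binding.

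Precursors were found in all 3 AML lung libraries while the normal lung libraries held 4 of them in all. AML lung 1 held 77 (1.70% of its kept cells, exact 95% binomial interval 1.34% to 2.12%), AML lung 2 held 103 (0.794%, 0.649% to 0.962%) and AML lung 3 held 371 (1.05%, 0.949% to 1.17%). Normal lung 1 held 0 of 3538 cells, for which the exact upper limit is 0.104% and 3 counts of the total, the limit that a count of 0 allows, are 0.0848%. Normal lung 2 held 2 (0.0363%, 0.00440% to 0.131%) and normal lung 3 held 2 (0.0203%, 0.00246% to 0.0733%). The mean share was 1.18% ± 0.465 over AML lung libraries and 0.0189% ± 0.0182 over normal lung libraries (SD, n = 3 each), and the groups did not overlap. These shares are a description, since the members were chosen with their spread over the groups known, and intervals cover counting error only. Mature neutrophils were present in every library of both groups, with a mean share of 9.64% ± 4.93 in AML lung against 9.80% ± 4.62 in normal lung (SD, n = 3 libraries each). Precursors therefore made up 19.1%, 11% and 6.44% of precursors and mature neutrophils together in AML lung 1, 2 and 3, against 0%, 0.423% and 0.341% in normal lung 1, 2 and 3.

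**Figure D1:**
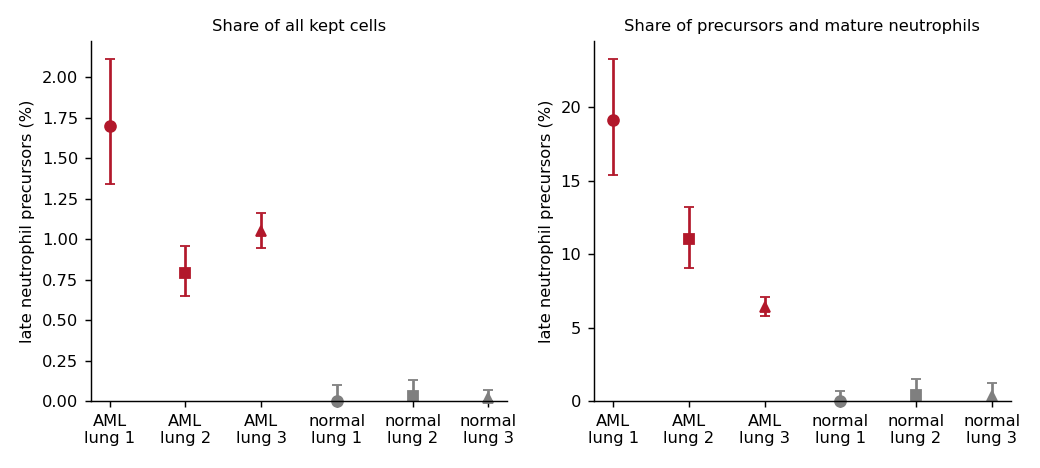
Share of late neutrophil precursors in each library, in percent of all kept cells (left) and of precursors and mature neutrophils together (right), with AML lung in red and normal lung in grey; bars are exact 95% binomial intervals. The AML lung libraries lie between 0.794% and 1.70% of kept cells, all above the normal lung libraries at 0% to 0.0363%.

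Of the 4 cells from normal lung, 3 were rich in the rule's genes. One cell of normal lung 2 had 1233 Ngp, 1684 Camp and 318 Ltf UMIs among 31052 UMIs, and the other had 3, 3 and 1 among 2484. The cells of normal lung 3 had 61 and 68 Ngp UMIs, 71 and 52 Camp UMIs and 13 and 23 Ltf UMIs. With so few cells no level was compared between precursors of AML lung and normal lung.

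The threshold of 5 UMIs cut through few cells. Members with exactly 5 UMIs of the 3 genes numbered 0, 2 and 14 in AML lung 1, 2 and 3, and cells with 4 that otherwise met the rule numbered 3, 4 and 22. Lcn2 was detected in 11 of the 14 members just inside and in 18 of the 22 cells just outside in AML lung 3. The median sum of Ngp, Camp and Ltf over members was 156, 25 and 24 UMIs in AML lung 1, 2 and 3, and the richest cell of each library had 3426, 1042 and 276. The rule on markers of other lineages removed 0, 3 and 9 cells.

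Depth differed between the libraries, which held 43913245 to 66513826 UMIs over 3967 to 35391 barcodes. Precursors had a median of 8559, 2471 and 1137 UMIs in AML lung 1, 2 and 3, and mature neutrophils had 5079.5, 2436 and 1213.5 there. Pairs of libraries shared between 2 and 118 barcodes. None of the 551 precursors of AML lung was a predicted doublet, against 19, 30 and 80 of the mature neutrophils of AML lung 1, 2 and 3. In AML lung 2 and 3 the doublet tool's own threshold marked 0% of kept cells, so a threshold taken from other libraries was used there.

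The name of the cells was checked against Lcn2, which the rule did not use, and against primary granule genes. With every cell thinned to 1000 UMIs, Lcn2 was detected in 96.1%, 82.6% and 89.9% of precursors in AML lung 1, 2 and 3, in 43.9%, 28.8% and 33.0% of mature neutrophils, and in 0.244%, 0.472% and 3.14% of B cells, which should lack it. Thinning left out 0, 11 and 154 precursors with fewer UMIs. Without thinning the shares of precursors with Lcn2 were 100%, 85.4% and 94.3%. Ngp was found in 0%, 0.337% and 0.649% of the thinned B cells.

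Genes of the primary granules did not all go one way. Levels are in CPM, the UMIs of a gene summed over the cells of a class in a library and scaled to a total of 1000000. Elane, neutrophil elastase, had 109, 0 and 0 CPM in precursors of AML lung 1, 2 and 3 and at most 1.41 CPM in mature neutrophils of AML lung. Prtn3, proteinase 3, had 178, 36.1 and 11.04 CPM in precursors and 9.13, 13.4 and 9.62 CPM in mature neutrophils. Mpo, myeloperoxidase, had 5 UMIs over all precursors of AML lung and 2 over all mature neutrophils. Of the 9 genes of the primary granule list 5 could be tested with edgeR, of which Ms4a3 and Cd63 were higher in precursors than in mature neutrophils, Srgn was lower and the median log2 change was 1.31. The call of Srgn was lost without AML lung 1 (edgeR adjusted p = 0.118) and without AML lung 2 (adjusted p = 0.237). Mpo, Elane, Ctsg and Prss57 were not tested. Elane UMIs of precursors came from AML lung 1, and 5 of its 77 precursors also met a primary granule rule, at least 2 of Mpo, Elane, Prtn3 and Ctsg detected and at least 5 UMIs over them.

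Another 83 cells, 14, 57 and 12 of AML lung 1, 2 and 3 and 0 of normal lung, met the primary granule rule without being precursors. They carried monocyte markers. Their low Ngp, Camp and Ltf follow from leaving precursors out of the class. The 12 genes of the secondary granule list, which includes Lyz2 and the rule's genes, summed to 63430.0, 40150.0 and 43230.0 CPM in precursors, 11860.0, 9486 and 11440.0 CPM in primary granule cells and 4742, 3410.0 and 6233 CPM in mature neutrophils. Ngp, Camp and Ltf made up most of each precursor sum, so most of that gap follows from the rules. Lcn2 was detected in 28.6%, 21.1% and 40.0% of the thinned primary granule cells, and in 78.6%, 68.4% and 75.0% without thinning. Ly6g, which encodes the neutrophil surface protein of the Gr1 antibody and was chosen after its values were seen, was at 216, 253 and 199 CPM in precursors and at 0 in all 3 sums of primary granule cells. F13a1, a factor XIII subunit of monocytes and macrophages, was at 0, 55.5 and 27.6 CPM in precursors and at 1396, 922 and 2095 CPM in primary granule cells. Ccr2, the chemokine receptor of classical monocytes, was at 0, 125 and 88.4 CPM in precursors and at 775, 936 and 549.6 CPM in primary granule cells. The 6 markers of classical monocytes summed to 860.5, 960.1 and 792 CPM in precursors, 5239, 5344 and 5393 CPM in primary granule cells and 413, 546.5 and 927 CPM in mature neutrophils. Of these 6, Ly6c2 was called higher in precursors than in mature neutrophils. Its log2 change was 1.62 to 2.35 with 1 library left out (edgeR adjusted p at most 0.0127). That call was lost once members with 2 or more of the mature neutrophil genes were left out (edgeR adjusted p = 0.271). Primary granule cells were also deeper, with a median of 26105, 15482 and 2113.5 UMIs. Only AML lung 2 held 20 of them, so no test was run between them and precursors.

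**Figure D2:**
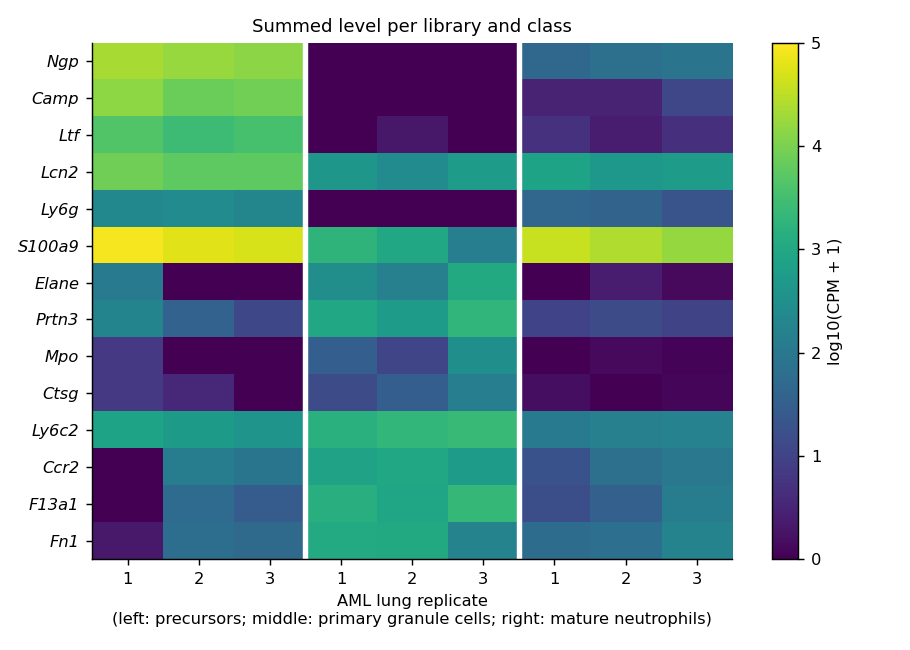
Level, as log10(CPM + 1) of summed UMIs, of granule, neutrophil and monocyte genes (rows) in precursors, primary granule cells and mature neutrophils of AML lung replicates 1 to 3 (columns). Ngp, Camp and Ltf part the classes by rule; Ly6g is high in precursors and at 0 in primary granule cells, which carry Ly6c2, Ccr2, F13a1 and Fn1.

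The genes of the rules are given as levels only. Ngp was at 22553, 16894 and 13814 CPM in precursors of AML lung 1, 2 and 3, against 48.2, 67.9 and 84.4 CPM in mature neutrophils. Camp was at 14284, 7639 and 8501 CPM in precursors, against 2.03, 2.11 and 10.7 CPM in mature neutrophils. Ltf was at 4398, 2628 and 3452 CPM in precursors, against 4.06, 1.41 and 3.99 CPM in mature neutrophils. All 5 genes that chose the mature neutrophils were present in precursors, Retnlg at a higher and the other 4 at a lower level than in mature neutrophils of the same library. Retnlg, a resistin-like secreted protein, was at 8579.6, 10287 and 5629 CPM in precursors, against 4458, 5925 and 2841 CPM in mature neutrophils. Cxcr2, the receptor for CXC chemokines that draws neutrophils out of the marrow, was at 347, 286 and 202 CPM in precursors, against 742, 471 and 396 CPM in mature neutrophils. Il1r2, the decoy receptor of interleukin 1, was at 2387, 1365 and 1695 CPM in precursors, against 5159, 3371 and 2601 CPM in mature neutrophils, and in thinned cells it was detected in 68.8%, 51.1% and 61.8% of precursors, against 86.8%, 85.2% and 81.8% of mature neutrophils. At least 3 of the 5 mature genes were detected in 75 of 77, 66 of 103 and 232 of 371 precursors.

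The comparison of precursors with mature neutrophils inside the AML lung asks which other genes accompany the secondary granule genes. Precursors held more mRNA of other secondary granule proteins, of Cebpe and Erg, of calprotectin, of the NADPH oxidase and of glycolytic enzymes, and less of inflammatory cytokines, interferon-stimulated genes and the G-CSF receptor. Many of the rises did not pass, in 2 libraries, once members with 2 or more mature genes were left out. Counts summed per library and class were tested with edgeR's quasi-likelihood test, with the library as a term and Benjamini-Hochberg adjustment over all 8324 genes tested. It called 446 genes higher (5.36%) and 319 lower (3.83%) in precursors at an adjusted p under 0.05, and the median log2 change of all genes tested was -0.02. The genes of the rules are left out of these counts. Cells were parted by the granule genes, so genes transcribed at the same stage differ by that choice, and the test measures how evenly they did so over 3 libraries. Without AML lung 1 the test called 208 genes, without AML lung 2 384 and without AML lung 3 849. With members of 2 or more mature genes left out, which leaves 24 and 64 precursors of AML lung 2 and 3, the test called 63 genes. Of the genes named here 21 passed then, Cebpe, Erg, Cd177, Orm1, Il1b and Csf3r among them, 32 lost the call and 6 turned in direction. Lcn2 had a log2 change of 1.90 (edgeR adjusted p = 0.606) under that choice, Cybb 1.13 (adjusted p = 0.937), Ncf1 0.26, Gpi1 0.23, Ldha 0.11 and S100a8 0.07 (adjusted p = 0.999 for each of the last 4). All CPM values below are of AML lung 1, 2 and 3 in that order, followed where given by normal lung 1, 2 and 3.

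Among secondary granule genes all 8 that were tested outside the rule were higher in precursors (median log2 change 2.77). Ptx3 was too low to be tested. Lcn2 had 8334, 5647 and 5703 CPM in precursors, 812, 455 and 572 CPM in mature neutrophils of AML lung and 389, 422 and 268 CPM in those of normal lung. Every precursor sum lay above every mature sum, and the log2 change was 3.52 (± 0.156 SE, edgeR adjusted p = 1.09e-05). Cd177, a surface glycoprotein stored in these granules, had 757, 591 and 530.2 CPM in precursors and 32.4, 18.6 and 34.0 CPM in mature neutrophils of AML lung (log2 change 4.55 ± 0.226 SE, edgeR adjusted p = 1.09e-05). Mmp8, neutrophil collagenase, had 1700.3, 749 and 1036 CPM in precursors and 222, 115 and 159 CPM in mature neutrophils, a log2 change of 2.87 (edgeR adjusted p = 1.72e-05). Olfm4, olfactomedin 4, which marks a subset of neutrophils, had 99.9, 47.2 and 184 CPM in precursors and 17.2, 18.3 and 11.97 CPM in mature neutrophils, a log2 change of 2.86 (edgeR adjusted p = 0.00569). Chil3, a chitinase-like protein also made by alveolar macrophages, was less even: it had 2853, 974 and 2356 CPM in precursors and 100.4, 219 and 1096 CPM in mature neutrophils, so that AML lung 2 precursors overlapped AML lung 3 mature neutrophils (log2 change 2.68, edgeR adjusted p = 0.0272). In thinned cells of AML lung 3 it was detected in 57.6% of precursors, 31.7% of mature neutrophils and 26.2% of B cells. Thinned B cells of AML lung 1 and 2 had it in 0.976% and 2.43%. Lyz2, Pglyrp1 and Hp rose by 1.30, 1.07 and 0.65 on the log2 scale, with edgeR adjusted p = 0.00536, 0.00354 and 0.0273, and lost the call without AML lung 2 (adjusted p = 0.112, 0.174 and 0.394), Hp also without AML lung 1 (adjusted p = 0.149) or 3 (adjusted p = 0.0727).

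The genes with the largest rises by a fixed rule were Orm1, Fcnb, Cpa6, Itgb2l, Cd177, Adpgk, Erg, Cebpe, Abca13, Serpinb1a, Anxa3 and Lcn2. That rule took genes past the threshold with an average of at least 5 on the log2 CPM scale and no overlap between the classes. Orm1, the acute-phase protein orosomucoid 1, had 75.8, 77.7 and 153 CPM in precursors and 0.507, 0.352 and 0.704 CPM in mature neutrophils (log2 change 7.66 ± 0.367 SE, edgeR adjusted p = 1.09e-05). It was close to absent from mature neutrophils of normal lung too, at 0.260, 0 and 0 CPM. Fcnb, ficolin B, a lectin of immature myeloid cells, had 299.9, 11.1 and 36.8 CPM in precursors and 1.01, 0.703 and 0.821 CPM in mature neutrophils (log2 change 6.35 ± 0.550 SE, edgeR adjusted p = 0.000337). Its level was highest in precursors of AML lung 1 and lowest in those of AML lung 2. Itgb2l, an integrin beta 2-like chain, had 198, 153 and 123 CPM in precursors and 7.10, 7.03 and 4.46 CPM in mature neutrophils (log2 change 4.76, edgeR adjusted p = 1.09e-05). Cpa6, a carboxypeptidase, had 131, 147 and 112 CPM in precursors and 3.04, 3.87 and 1.99 CPM in mature neutrophils (log2 change 5.59, edgeR adjusted p = 1.09e-05). Serpinb1a, an inhibitor of the neutrophil serine proteases, had 442, 161 and 173 CPM in precursors and 13.7, 17.2 and 21.5 CPM in mature neutrophils (log2 change 3.78, edgeR adjusted p = 0.000641). Abca13, a lipid transporter, Adpgk, ADP-dependent glucokinase, and Anxa3, annexin A3, rose by 4.13, 4.51 and 3.57 on the log2 scale. All 12 kept the call without any 1 of the 3 libraries. Orm1 has near-identical neighbours in its gene family, and the sources used here do not give how the counting treated shared reads.

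**Figure D3:**
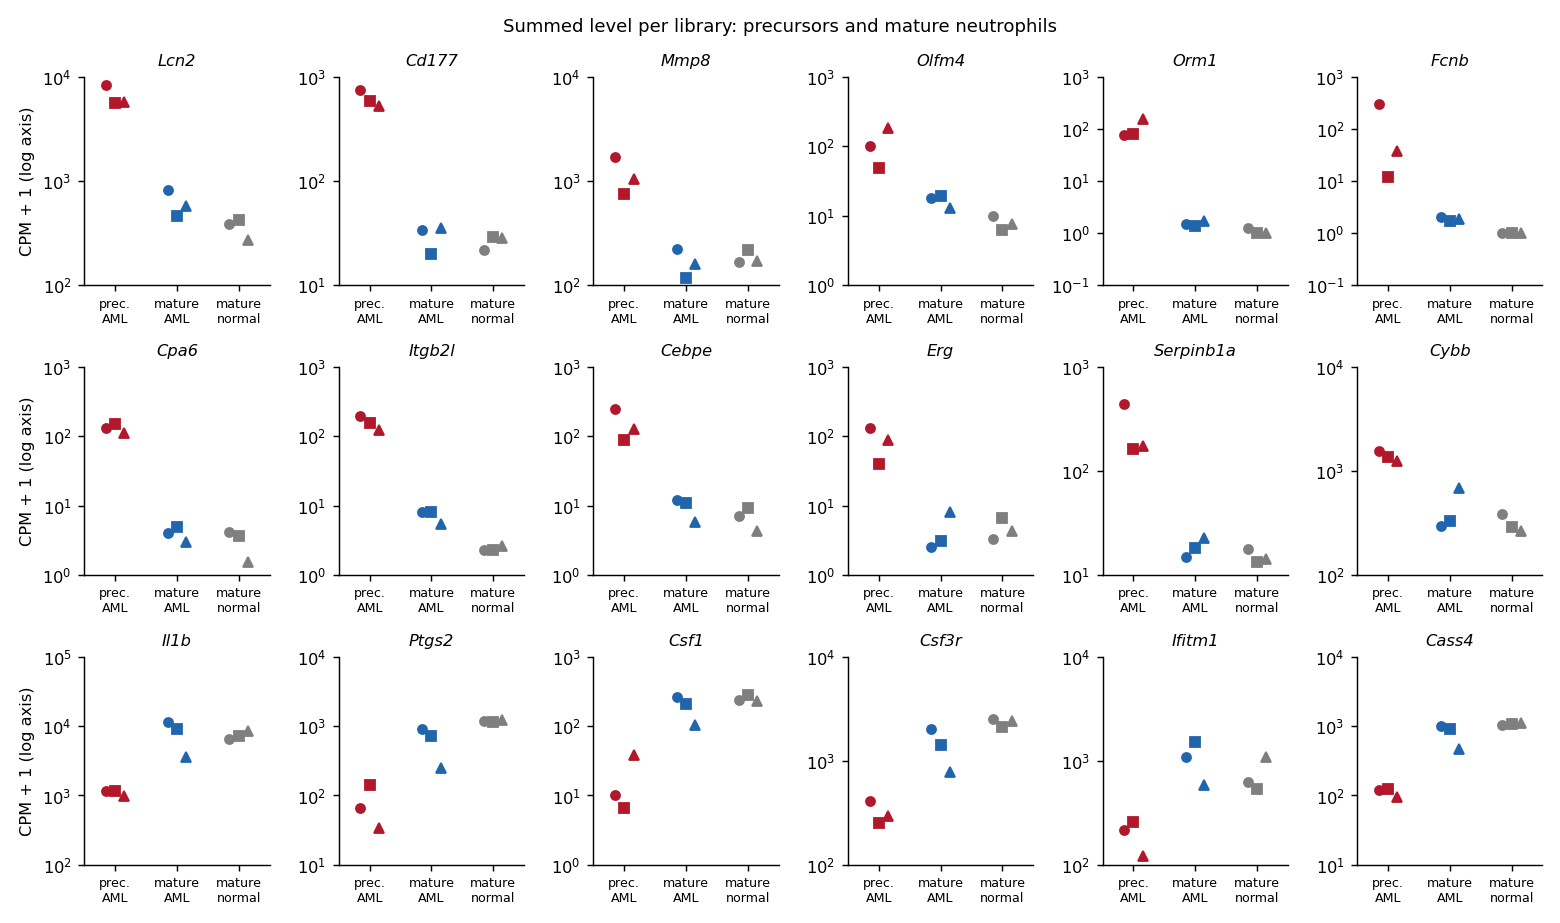
CPM + 1 (log axis) of 18 genes in the summed cells of each library: precursors of AML lung (red), mature neutrophils of AML lung (blue) and mature neutrophils of normal lung (grey); circle, square and triangle are replicates 1, 2 and 3. The first 12 genes lie higher in every red point than in any blue point, and the last 6 lie lower.

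Among regulators Cebpe and Erg stood out. Cebpe had 244, 88.8 and 127 CPM in precursors, 11.2, 9.85 and 4.81 CPM in mature neutrophils of AML lung and 5.99, 8.26 and 3.28 CPM in those of normal lung (edgeR adjusted p = 0.000149, log2 change 4.26 ± 0.323 SE). Erg, an ETS-family factor of haematopoietic stem cells and progenitors, had 129.8, 38.8 and 88.4 CPM in precursors and 1.52, 2.11 and 7.04 CPM in mature neutrophils (log2 change 4.50 ± 0.461 SE, edgeR adjusted p = 0.000791). Of the 13 granulopoiesis factors tested only Cebpe rose and 3 fell, Cebpb, Junb and Fosl2, with Cebpb, a factor of emergency granulopoiesis, at a log2 change of -0.99 (edgeR adjusted p = 0.0080, 0.0930 without AML lung 1 and 0.171 without AML lung 2). Myb, a progenitor factor, had a log2 change of 2.02 that did not pass (edgeR adjusted p = 0.0786). Of the 10 stem, progenitor and leukaemia regulators Erg rose, Kit, Myb and Mef2c did not pass, and Hoxa9, Hoxa10, Meis1, Cd34, Flt3 and Sox4 were too low to be tested. Hoxa9, a homeobox gene of many acute myeloid leukaemias, had 0 UMIs in the precursor sums of all 3 libraries, and Cd34, a progenitor surface marker, had 1 among 1774036. Mature neutrophils of AML lung had 14 Cd34 UMIs among 13338148, so counts this low do not part the 2 classes for Cd34.

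Precursors also held more of the abundant cytosolic and membrane machinery of neutrophils. Of 8 genes of the calprotectin list 5 were higher. S100a8 and S100a9, the calprotectin chains, took the largest share of UMIs: S100a9 had 85543, 59204 and 50095 CPM in precursors and 37700.0, 25768 and 16202 CPM in mature neutrophils. The log2 changes were 1.67 for S100a8 and 1.42 for S100a9 (edgeR adjusted p = 0.000679 and 0.00149), and without AML lung 2 they were 1.65 and 1.43 with adjusted p = 0.156 and 0.237. Anxa1, annexin A1, and Wfdc21, a secreted protease-inhibitor-like protein, rose by 2.44 and 2.18 (edgeR adjusted p = 6.87e-05 and 5.15e-05). Of 6 NADPH oxidase genes 5 were higher, led by Cybb, the gp91phox chain, with 1545, 1354 and 1252 CPM in precursors and 295, 326 and 690.5 CPM in mature neutrophils (log2 change 1.86, edgeR adjusted p = 0.00438). Of 15 glycolysis genes 9 were higher and none lower (median 0.85), with Pgam1, Ldha and Gpi1 at 1.26, 1.07 and 1.07. Pgam1, Ldha and Gpi1 lost the call without AML lung 1 (edgeR adjusted p = 0.121, 0.0894 and 0.0505) and without AML lung 2 (adjusted p = 0.0651, 0.153 and 0.0792). None of 16 oxidative phosphorylation genes or 12 protein folding genes of the endoplasmic reticulum passed, with log2 changes between -0.03 and 0.60 for the first list and between -0.58 and 0.29 for the second.

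Gelatinase granule genes and receptors were split. Of 8 genes of gelatinase granules and secretory vesicles 5 were higher and 1, Slc11a1, was lower. Mmp25, a membrane-anchored matrix metalloproteinase, rose by 1.94 and Mmp9, gelatinase B, by 1.28 (edgeR adjusted p = 0.000791 and 0.00257, and 0.0569 for Mmp9 without AML lung 2). Of 11 chemoattractant and egress receptors tested outside the rule 3 were higher and 4 lower. Ltb4r1, the leukotriene B4 receptor, had 180.4, 133 and 101 CPM in precursors and 27.9, 35.5 and 24.9 CPM in mature neutrophils (log2 change 2.30, edgeR adjusted p = 0.000763). Selplg, the selectin ligand PSGL-1, and Itga4, the integrin alpha 4 chain, fell by 1.29 and 1.41 on the log2 scale (edgeR adjusted p = 0.0059 and 0.0172, 0.0695 and 0.0808 without AML lung 1, and 0.0786 and 0.0823 without AML lung 2). Of 9 cytokine receptors 3 were lower. Csf3r, the receptor for G-CSF, had 412, 253 and 291 CPM in precursors, 2039, 1428 and 787 CPM in mature neutrophils of AML lung and 2513, 2133 and 2415 CPM in those of normal lung (edgeR adjusted p = 0.00105, log2 change -1.99 ± 0.218 SE).

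Inflammatory genes were lower in precursors. Of 14 cytokines and NF-kB targets tested 10 were lower in precursors and 1, Tnf, was higher (median -1.18). The call of Tnf was lost without any 1 of the libraries. Il1b, interleukin 1 beta, had 1173, 1168 and 996 CPM in precursors, 11501, 9054 and 3597 CPM in mature neutrophils of AML lung and 6449, 7322 and 8614 CPM in those of normal lung (edgeR adjusted p = 0.000791, log2 change -2.62 ± 0.267 SE). Ptgs2, cyclooxygenase 2, had 64.3, 142 and 33.1 CPM in precursors and 908, 725 and 248 CPM in mature neutrophils (log2 change -2.97, edgeR adjusted p = 0.000492). Csf1, the macrophage growth factor M-CSF, had the largest fall, with 9.19, 5.55 and 36.8 CPM in precursors and 259, 209 and 104 CPM in mature neutrophils (log2 change -3.32, edgeR adjusted p = 0.00888, and -2.53 with adjusted p = 0.0695 without AML lung 1). Ccl4, a chemokine, fell by 2.17 on the log2 scale (edgeR adjusted p = 0.00568). The fall of Cxcl2, a neutrophil-attracting chemokine, was 1.43 (edgeR adjusted p = 0.000944, and 0.0556 without AML lung 2).

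Of 14 interferon-stimulated genes tested 8 were lower and 1, Ifitm6, was higher (median -1.02). Ifitm1, which encodes an interferon-induced membrane protein, had 217, 255 and 119.7 CPM in precursors and 1090.5, 1503 and 591 CPM in mature neutrophils (log2 change -2.31, edgeR adjusted p = 6.87e-05). Ifitm6, a member of the same family, went the other way, with 1590.0, 2192 and 1375 CPM in precursors and 231, 394 and 209 CPM in mature neutrophils (log2 change 2.75, edgeR adjusted p = 2.28e-05). Isg15, a ubiquitin-like protein, fell by 1.80 and Rsad2, viperin, by 1.64 on the log2 scale. Of 8 immunosuppression genes tested 4 were lower, among them Wfdc17 (fell by 2.59, edgeR adjusted p = 0.000286) and Clec4n, dectin 2 (fell by 2.62, edgeR adjusted p = 0.0118).

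The other largest falls were Prr5l, a partner of the mTORC2 kinase complex, Htr2c, a serotonin receptor, Fgl2, fibrinogen-like 2, Scml4, Entpd3, Cass4, an adhesion scaffold, Zdhhc14 and Il1bos. Cass4 had 118, 125 and 93.9 CPM in precursors and 997, 901 and 473 CPM in mature neutrophils of AML lung (log2 change -2.68 ± 0.192 SE, edgeR adjusted p = 9.78e-05). Prr5l and Fgl2 fell by 3.30 and 2.81 on the log2 scale. Il1bos lies on the strand opposite Il1b, with which it overlaps, and the sources used here do not say whether the counting used strand. Csf1, Htr2c, Entpd3, Zdhhc14 and Il1bos lost the call without AML lung 1, with adjusted p between 0.0695 and 0.113, and Htr2c also without AML lung 3 (adjusted p = 0.273).

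**Figure D4:**
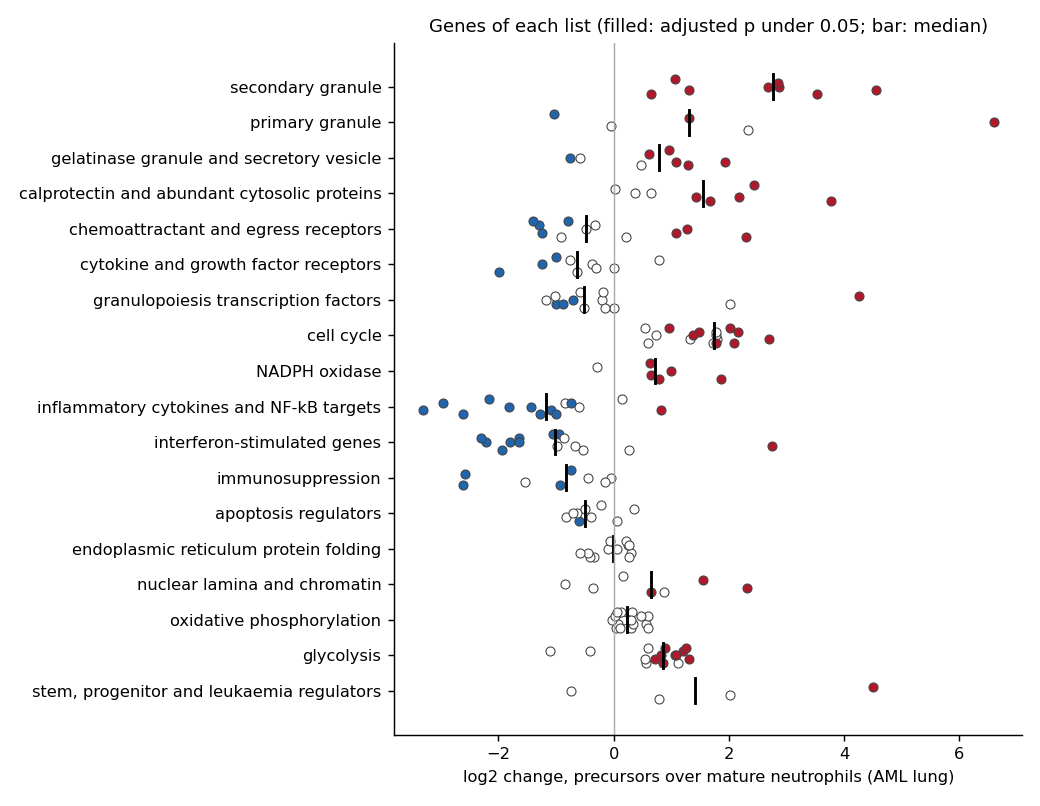
Log2 change of each tested gene, precursors over mature neutrophils of AML lung, by gene list (rows); filled points passed an adjusted p of 0.05 (red higher, blue lower), open points did not, and black bars are list medians. Secondary granule genes lie to the right, and inflammatory and interferon-stimulated genes to the left apart from Tnf and Ifitm6.

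A share of precursors carried mRNA of the cell cycle. Of 16 cell cycle genes tested 8 were higher and none lower (median 1.75). Mki67, a marker of cycling cells, had 285, 38.8 and 105 CPM in precursors and 23.8, 32.4 and 32.5 CPM in mature neutrophils (log2 change 2.09, edgeR adjusted p = 0.0357), and without AML lung 1 the change was 1.21 (adjusted p = 0.209), and without AML lung 3 2.29 (adjusted p = 0.0711). In cells thinned to 1000 UMIs, at least 2 of 16 mitotic and replication genes were detected in 10.4%, 4.35% and 10.1% of precursors of AML lung 1, 2 and 3, in 0.613%, 0.786% and 2.61% of mature neutrophils of AML lung and in 0.381%, 0.214% and 0.379% of those of normal lung. Exact 95% intervals were 4.59% to 19.5%, 1.20% to 10.8% and 6.46% to 14.95% for the precursors. Without thinning the shares were 16.9%, 6.80% and 12.9% in precursors and 5.21%, 4.20% and 3.65% in mature neutrophils of AML lung. Hmgn2 and Padi4, a nucleosome-binding protein and the enzyme that citrullinates histones in extracellular traps, rose by 2.31 and 1.55 on the log2 scale (edgeR adjusted p = 0.000627 and 0.00206). Ms4a3, a membrane protein of granulocyte and monocyte progenitors, was at 63.2, 8.32 and 9.20 CPM in precursors (63 UMIs in all). It had 2 UMIs over mature neutrophils of AML lung, a pooled ratio of 237 with a counting interval of 62.9 to 1998. That interval leaves out the spread between cells and libraries. Without thinning Ms4a3 was detected in 9 of 77, 1 of 103 and 4 of 371 precursors of AML lung 1, 2 and 3.

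Precursors differed in how many of the mature neutrophil genes were detected. Detection in a thinned cell also varies by sampling, and its part in this spread was not tested. Cells were divided by these genes, so genes transcribed along with them differ by that choice. In cells thinned to 1000 UMIs, 11 of 77, 22 of 92 and 53 of 217 precursors in AML lung 1, 2 and 3 had 0 or 1 of the 5 mature genes, and 66, 70 and 164 had at least 2. They are called mature-gene-poor and mature-gene-rich precursors here. Without cells holding at least 3 markers of another cell type, 6, 11 and 29 mature-gene-poor and 56, 49 and 121 mature-gene-rich precursors were left. The mature-gene-poor cells lost the larger share in each library, so their levels below include many cells with such markers. From the poorest to the richest cells Cxcl2 and Mmp8 were higher and Cebpe was lower. For cells with 0 or 1, 2, 3, and 4 or 5 mature genes Mmp8 was at 162, 1069.9, 3284 and 2295 CPM in AML lung 1, at 89.6, 465, 809.9 and 1322 CPM in AML lung 2 and at 341, 827, 1403 and 1646 CPM in AML lung 3. Cebpe was at 517, 320.1, 92.6 and 73.6 CPM in AML lung 1, at 215, 119, 63.9 and 27.7 CPM in AML lung 2 and at 230.0, 53.9, 90.0 and 50.7 CPM in AML lung 3. The bins held 9 to 68 cells each, and cells in the poorest bin of AML lung 1 were the deepest, with a median of 26067 UMIs. Lcn2 had no order shared by the libraries. It fell from 11063 to 8413, 8247 and 6041 CPM in AML lung 1. In AML lung 2 it was at 3493, 6836, 6298 and 5632 CPM, and in AML lung 3 at 4275, 3055, 5865 and 6864 CPM.

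**Figure D5:**
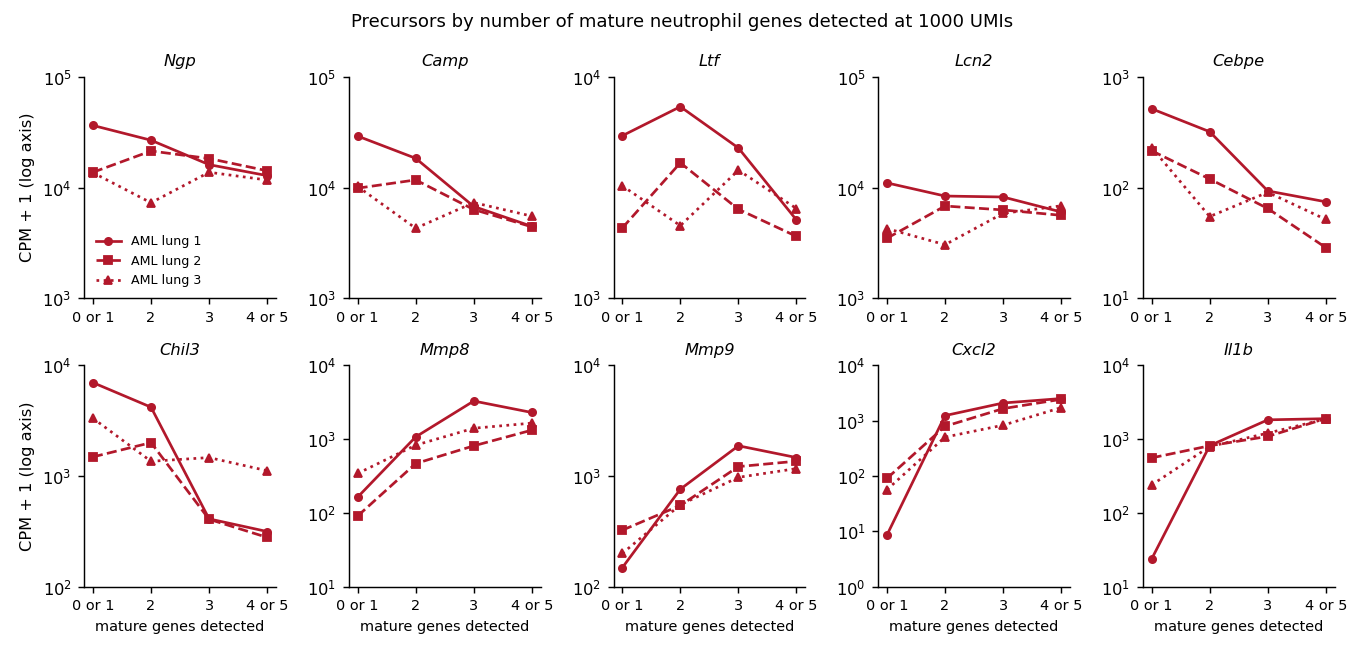
CPM + 1 (log axis) of 10 genes in precursors grouped by how many of 5 mature neutrophil genes were detected at 1000 UMIs (horizontal axis), for AML lung replicates 1 (solid), 2 (dashed) and 3 (dotted). Mmp8, Mmp9, Cxcl2 and Il1b are lowest in cells with 0 or 1 mature genes in every replicate, and Cebpe is highest there.

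Tested over libraries, 77 genes were higher (1.84%) and 14 lower (0.334%) in mature-gene-rich than in mature-gene-poor precursors, of 4186 tested, outside the rules' genes. The largest rises were Cstdc4, Olfm4, Il1f9, Cxcl2, Ptgs2, Arg2, Ankrd33b, Ifitm1, Tarm1, Dhrs9, Nlrp3 and Mmp8. Olfm4 had 178 UMIs in mature-gene-rich and 0 in mature-gene-poor precursors, so that its summed level was at least 22.1-fold higher. Cstdc4, a stefin-like gene of a family of near-identical copies, had 297 and 0, at least 36.8-fold. Both folds are against a floor of 3 counts over the group and cover counting error only. Without thinning Olfm4 was detected in 5 of 77, 2 of 103 and 32 of 371 precursors of AML lung 1, 2 and 3, so its change rests on few cells. Il1f9, an interleukin 1 family cytokine (IL-36 gamma), had 328 UMIs in mature-gene-rich and 3 in mature-gene-poor precursors, a ratio of 40.7 (counting interval 13.8 to 198). Cxcl2 had 2153, 1668 and 942 CPM in mature-gene-rich and 7.54, 89.6 and 55.5 CPM in mature-gene-poor precursors (log2 change 5.40, edgeR adjusted p = 0.000348, and 0.0641 without AML lung 2). Mmp8 had 2374, 889.8 and 1254 CPM in mature-gene-rich and 162, 89.6 and 341 CPM in mature-gene-poor precursors (log2 change 3.07, edgeR adjusted p = 0.00223, and 0.118 without AML lung 2). The mature-gene-poor sums were 2, 5 and 7 UMIs for Cxcl2 and 43, 5 and 43 UMIs for Mmp8.

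Of 12 cytokines and NF-kB targets tested 5 were higher in mature-gene-rich than in mature-gene-poor precursors, Cxcl2, Ptgs2 and Il1b among them, and 7 did not pass. Il1b had 1677, 1297 and 1228 CPM in mature-gene-rich and 22.6, 555 and 238 CPM in mature-gene-poor precursors (log2 change 3.05, edgeR adjusted p = 0.0207, 0.0954 without AML lung 1 and 0.112 without AML lung 2). Its call was also lost at 10 UMIs of the rule's genes (edgeR adjusted p = 0.147), in thinned cells (adjusted p = 0.0700), with cells carrying markers of another type left out (adjusted p = 0.0591) and with DESeq2 (adjusted p = 0.0588). Of 8 genes of gelatinase granules 4 were higher and none lower. Csf3r had 548, 295 and 335 CPM in mature-gene-rich and 102, 35.8 and 103 CPM in mature-gene-poor precursors (log2 change 2.33, edgeR adjusted p = 0.00642, 0.0511 without AML lung 1 and 0.141 without AML lung 2). The mature-gene-poor sums of Csf3r were 27, 2 and 13 UMIs. Of the 8 secondary granule genes tested Mmp8 and Olfm4 alone passed. The rule's own genes are given as levels: Camp was at 7698, 7346 and 5746 CPM in mature-gene-rich and 29319, 9906 and 10263 CPM in mature-gene-poor precursors, and so lower in the mature-gene-rich cells of every library. Ngp was at 16404, 17834 and 10865 CPM in mature-gene-rich and 36591, 13793 and 13682 CPM in mature-gene-poor precursors, and Ltf at 3945, 2792 and 2853 CPM in mature-gene-rich and 5432, 2078 and 3228 CPM in mature-gene-poor precursors.

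The falls by the same rule numbered 7, which were Prkar2a, a protein kinase A subunit, Smc2 of condensin, Incenp of the chromosomal passenger complex, Tuba1b, a tubulin, Ran, the nuclear transport GTPase, Psmb4 of the proteasome, and Cebpe. Smc2 had 34.7, 6.79 and 19.9 CPM in mature-gene-rich and 226, 35.8 and 103 CPM in mature-gene-poor precursors (log2 change -2.47, edgeR adjusted p = 0.0100, and 0.0872 without AML lung 2). In the mature-gene-poor sum of AML lung 2 a level of 35.8 CPM is 2 UMIs, so the fall of Smc2 there rests on very few counts. Cebpe had 124, 67.9 and 66.4 CPM in mature-gene-rich and 517, 215 and 230.0 CPM in mature-gene-poor precursors (log2 change -1.78, edgeR adjusted p = 0.0167, 0.174 without AML lung 1 and 0.175 without AML lung 2). Top2a, the mitotic topoisomerase, had 95.8, 10.2 and 33.2 CPM in mature-gene-rich and 464, 0 and 206 CPM in mature-gene-poor precursors (log2 change -2.13, edgeR adjusted p = 0.0245, 0.0999 without AML lung 2 and 0.0738 without AML lung 3), so AML lung 2 did not share its direction. Elane had 0 UMIs in mature-gene-rich and 95 in mature-gene-poor precursors, all in AML lung 1.

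In the comparison with mature neutrophils, the genes that turned in direction with members of 2 or more mature genes left out were Mmp8, Olfm4, Pglyrp1, Mmp9, S100a9 and Fpr2, at -0.26, -1.11, -0.43, -0.95, -0.20 and -0.41. The counts between the classes of the precursors rest on few cells. Without AML lung 1 the test called 19 genes, without AML lung 2 5 and without AML lung 3 267. Of the 19 genes with the largest changes, Cstdc4, Olfm4, Il1f9 and Ankrd33b passed without any 1 library, and the other 15 lost the call without at least 1.

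Markers of other cell types were present in some precursors. At least 3 markers of another type were detected in 15 of 77, 37 of 103 and 72 of 371 precursors of AML lung 1, 2 and 3. The same held for 44 of 326, 173 of 833 and 1971 of 5394 mature neutrophils. At least 3 of 6 interstitial macrophage markers were detected in 0, 14 and 1 precursors of AML lung 1, 2 and 3, at least 3 classical monocyte markers in 4, 18 and 16, at least 3 nonclassical monocyte markers in 15, 12 and 45, and at least 3 B cell markers in 0, 0 and 15. In percent, nonclassical monocyte markers were in 19.5%, 11.7% and 12.1% of precursors, against 10.7%, 14.0% and 17.6% of mature neutrophils, and B cell markers in 0%, 0% and 4.04% of precursors, against 0.613%, 3.48% and 3.08% of mature neutrophils. Alveolar macrophage markers were in 0, 7 and 1 precursors, T cell markers in 0, 0 and 5 and natural killer cell markers in 0, 0 and 6. B cell markers summed to 46.3, 17.0 and 103 CPM in mature-gene-rich precursors, against 37.7, 89.6 and 634.5 CPM in mature-gene-poor ones. The interstitial macrophage markers summed to 26.4, 624 and 471 CPM in precursors and to 88.2, 159 and 752 CPM in mature neutrophils, and 5, 1 and 1 of the 6 were at 0 in precursors. They summed to 13.2, 299 and 617 CPM in mature-gene-rich precursors, against 56.6, 2078 and 468 CPM in mature-gene-poor ones. C1qa, a complement chain that macrophages make, had 0, 88.3 and 33.2 CPM in mature-gene-rich and 0, 681 and 0 CPM in mature-gene-poor precursors. Cd74, the MHC class II invariant chain, had 21.5, 605 and 464 CPM in mature-gene-rich and 302, 5284 and 888 CPM in mature-gene-poor precursors (log2 change -2.47, edgeR adjusted p = 0.0167, 0.162 without AML lung 1 and 0.327 without AML lung 2). The 14 cells of AML lung 2 go against the name given by the rule. With every cell holding 3 or more markers of another type left out, 838 genes were called between precursors and mature neutrophils, 605 of them among the 765, while 28 were called between mature-gene-rich and mature-gene-poor precursors, in 2 libraries. Erythroid markers, haemoglobin among them, summed to 36.8 CPM in precursors of AML lung 3 and to 2540.0 CPM in mature neutrophils of the same library, and their part in the results was not tested.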

How the data were processed

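UMI counts per gene and cell barcode were deposited for 6 single-cell libraries, made with Cell Ranger 7.0.0 on mm10 per the submitters' processing notes; the sources used here do not give the strand setting. Barcodes with at least 500 UMIs, at least 200 genes and under 10% mitochondrial UMIs were kept. Doublets were scored with Scrublet in scanpy 1.11.5 and not removed. Where its own threshold marked under 0.5% of barcodes, the median of the thresholds from the remaining libraries was taken.

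UMIs were summed per library and class. The sums were tested with edgeR 4.0.16 (R 4.3.3) by the quasi-likelihood test, with TMM scaling, filterByExpr and the library as a block, since both classes of a library come from the same sample. P-values were adjusted by the Benjamini-Hochberg method over all genes tested, with 0.05 as the threshold. The SE is the log2 change divided by the root of the F statistic. The fitting script was checked on simulated data. Alternatives were DESeq2 1.42.0, other scaling, filters and cell rules, no block and each library left out.

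The named genes are, per comparison, up to 12 rises and 12 falls with the largest change among genes that passed, averaged at least 5 on the log2 CPM scale and moved the same way in every library with no overlap between the classes. Gate genes, unnamed gene models, ribosomal, mitochondrial, X-inactivation, Y-linked and antigen receptor genes were left out. List members were added. The members, lists and tests were chosen with earlier results of these data known. The division of precursors was planned at 0 mature genes and at least 20 cells, which 1 library reached; it was widened to 0 or 1 genes and at least 10 cells after cell counts were seen. A planned test against primary granule cells was not run, because too few libraries held 20 of them.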

Additional observations from a re-analysis of the deposited data

How the results depend on the processing

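The count of 765 genes between precursors and mature neutrophils was 655 with DESeq2 and 686 with other size factors. It was 1417 with no low count filter (589 higher, 828 lower), 296 in cells thinned to 1000 UMIs (132 higher, 164 lower) and 138 without the replicate block (119 higher, 19 lower). It was 63 when members with 2 or more mature genes were left out, of which 53 were among the 765, in AML lung 2 and 3 only. Under that alternative the log2 changes of Mmp8, Olfm4, Pglyrp1, Mmp9, S100a9 and Fpr2 turned to -0.26, -1.11, -0.43, -0.95, -0.20 and -0.41; the cause was not tested. Leaving out 1 library gave 208 to 849 genes. The count of 91 between mature-gene-rich and mature-gene-poor precursors was 144 with DESeq2, 323 with no low count filter, 11 without the replicate block, 17 at 10 UMIs of the rule's genes, 18 in thinned cells, and 28 with cells carrying markers of another type left out, an alternative chosen after seeing the data. Leaving out 1 library gave 5 to 267 genes. The mean share of precursors was 0.923% to 1.38% in AML lung and 0.0102% to 0.0283% in normal lung with 1 library left out. Taken of neutrophil-lineage cells it was 12.2% and 0.255%. Few precursors and shallow cells in AML lung 3 limit the levels of low genes, and the leukaemia model and animals behind each library are not in the labels.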
